A study of Mus musculus with 6 samples.

Results

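Tnfsf11, Tnfrsf11b, Csf1 and Il34, 4 genes that regulate osteoclast formation, were followed in the RNA of bone marrow monocytes from the mandible and the femur. Tnfsf11 encodes RANKL, Tnfrsf11b encodes osteoprotegerin (OPG), and Csf1 and Il34 encode M-CSF and IL-34, the ligands of the CSF1 receptor. The genes were chosen by name for what their proteins do, though with earlier results of these data known, and they are 4 of the 57010 genes that the count table lists. All 6 libraries came from C57BL/6 mice (C57BL/6J in the methods) that were 1 year old, and the labels name no treatment or genetic change. The 3 libraries of mandibular-derived monocytes were S16, S19 and S23, and the 3 of femur-derived monocytes were S13, S15 and S18. Marrow was flushed from the bones, cells bound by an antibody mix were retained on a magnetic column, and the unbound cells were used as monocytes. The methods name male and female mice, but the sex, the animal and the batch of each library are not given in the sources used here. The p-values therefore measure only the spread between these libraries, which may be technical.

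RANKL is a membrane-bound or shed ligand that binds the receptor RANK (Tnfrsf11a) on monocytes and drives them to become osteoclasts. OPG is a secreted decoy receptor that binds RANKL and keeps it from RANK, so the balance of RANKL and OPG is a main control of bone resorption. M-CSF and IL-34 bind the same receptor (Csf1r) and keep cells of the monocyte lineage alive and dividing. In bone, RANKL, OPG and M-CSF are made mainly by stromal cells, osteoblasts and osteocytes, and RANKL also by activated lymphocytes, whereas IL-34 is best known from keratinocytes and neurons. Monocytes are better known for the receptors than for these ligands.

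Csf1 was the only one of these genes that was counted well in every library, with 338 to 656 counts, and the sites differed by less than the spread of its libraries. Tnfrsf11b had 43 to 60 counts in each mandibular library, 12 in 1 femur library and 0 in the other 2, so that its groups did not overlap. Tnfsf11 and Il34 had at most 64 counts in a library and 0 in mandible library S16, and their groups overlapped. None of the 4 genes was called different between the sites by edgeR's quasi-likelihood test, against 938 of 18114 tested genes (5.18%). A gene is called where its p, adjusted by Benjamini-Hochberg over all tested genes, is under 0.05 and the sites differ at least 2-fold, and fold changes are of mandible over femur. At an unadjusted p under 0.05 the count was also 0 of 4, against 2975 tested genes (16.4%), and DESeq2, edgeR's exact test and limma-voom called 0 of 4 each. All 4 genes passed the filter on low counts.

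The libraries held between 15718782 and 25371474 counts on genes. Levels are given as counts per 1000000 (CPM) after TMM scaling, edgeR's trimmed mean normalization between libraries. Where a library had no count of a gene, up to 3 counts are allowed, or 0.133 to 0.172 CPM, and this limit and all intervals on counts cover counting error only. Levels of different genes are compared only after division by gene length in kilobases, whereas the count ratios within a library are not divided by length. A pair of libraries stood apart. Femur library S15 had at least 1 count for 40494 genes, against 17481 to 23513 in the others, and it held 6112 reads on 1413 olfactory receptor genes, which monocytes are not known for, against 173 to 711. Mandible library S23 held the transcript of the inactive X chromosome, Xist, at 1440 CPM, against at most 0.553 CPM in the others. The methods name male and female mice, and the part of sex in the values of S23 was not tested. Where a member or a called gene rested on S15 or S23, the value without that library is given. The monocyte markers Ccr2 and F13a1 were present in every library, and the summed level of 7 monocyte markers was 2140 to 3940 CPM in the femur against 2050 to 4170 CPM in the mandible.

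**Figure D1:**
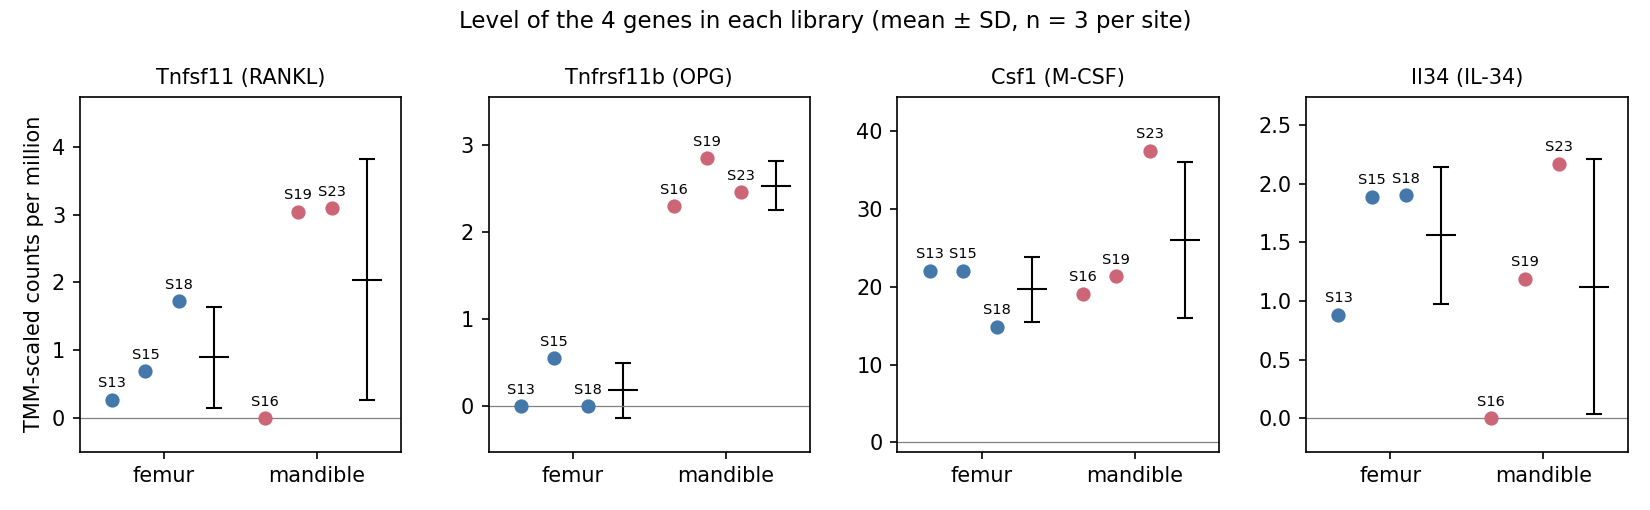
TMM-scaled CPM of Tnfsf11, Tnfrsf11b, Csf1 and Il34 in each femur (blue) and mandible (red) library, each gene on its own axis, with the mean and SD of 3 libraries per site as a bar beside the points. The mandibular points of Tnfrsf11b lie at 2.3 to 2.85 CPM, above the highest femur point at 0.553 CPM, while the points of the other genes overlap between the sites.

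Tnfsf11, the gene of RANKL, is identifier ENSMUSG00000022015 and lies on the minus strand at chr14:78277445-78308043 of GRCm38, with 5 exons in 1 annotated transcript and 2236 exonic bases. It had 5 counts in S13, 15 in S15 and 39 in S18 of the femur. In the mandible it had 0 counts in S16, 64 in S19 and 54 in S23. The femur libraries thus spanned 0.276 to 1.72 CPM, and S19 and S23 stood at 3.04 and 3.09 CPM while S16 lay below every femur library. The exact Poisson 95% interval of the count of 0 in S16 reached 3.69 counts, and that of the 5 counts in S13 ran from 1.62 to 11.7, so the intervals of these libraries overlapped at the low end. The mean level was 0.897 ± 0.745 CPM for the femur and 2.04 ± 1.77 CPM for the mandible (SD, n = 3 each). The fitted log2 fold change was 1.18 with a standard error of 1.58, which is 2.26-fold with a 95% interval of 0.203 to 25.2 (edgeR's quasi-likelihood test, Benjamini-Hochberg adjusted p = 0.82). An exact two-sided permutation test gave p = 1, where 3 against 3 libraries cannot give less than 0.1. The difference was smaller than the spread between libraries. Without S16 the log2 fold change was 1.76 (edgeR adjusted p = 0.55), without S18 it was 2.07 and without S23 it was 0.70. In limma-voom the direction turned, to -0.33.

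Tnfrsf11b, the gene of OPG, is identifier ENSMUSG00000063727 on the minus strand at chr15:54250619-54278484 of GRCm38, with 5 exons in 1 transcript and 2818 exonic bases. The femur libraries had 0 counts in S13, 12 in S15 and 0 in S18. The mandibular libraries had 46 counts in S16, 60 in S19 and 43 in S23. Every mandibular library was above every femur library, which was so for 24.2% of all tested genes in one direction or the other. The levels were 0.184 ± 0.319 CPM in the femur against 2.54 ± 0.281 CPM in the mandible (SD, n = 3 each). The mandibular libraries were close to each other, with a coefficient of variation of 11.1%, the smallest of the 4 genes at that site. The exact Poisson 95% intervals of their counts overlapped, at 33.7 to 61.4 in S16, 45.8 to 77.2 in S19 and 31.1 to 57.9 in S23. This spread thus lay within counting error. The log2 fold change was 3.73 with a standard error of 1.74, or 13.2-fold with a 95% interval of 0.937 to 187, and did not pass edgeR's quasi-likelihood test (Benjamini-Hochberg adjusted p = 0.32, unadjusted 0.055). The exact two-sided permutation test gave p = 0.1, the smallest it can give. Other tools gave unadjusted p-values of 0.017 (DESeq2), 0.032 (edgeR's exact test) and 0.013 (limma-voom), with Benjamini-Hochberg adjusted values of 0.13, 0.21 and 0.14.

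All femur counts of Tnfrsf11b were in S15. Without S15 the gene was called (edgeR's quasi-likelihood test, Benjamini-Hochberg adjusted p = 0.047). Against 3 counts in each of the 2 femur libraries at 0, a mean of 0.149 CPM, the mandibular mean was 17-fold higher. That value allows for counting error in these 2 libraries only. It leaves out S15 and the spread between libraries, so it is no lower bound on the difference between the sites. With S15 and S23 both left out, the adjusted p in edgeR was 0.075, and the gene was not called. In S15, 841 of the 1413 olfactory receptor genes (59.5%) had a count, against 6 to 55 genes in the other libraries, and these genes were picked after their values were seen. The level of Tnfrsf11b in S15 was 0.196 CPM per kilobase, and 8.78% of the olfactory receptor genes were at or above it in that library. The same share was 2.9% for Tnfsf11, 0.212% for Il34 and 0% for Csf1. The part of this broad low signal in the 12 counts of Tnfrsf11b was not tested.

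**Figure D2:**
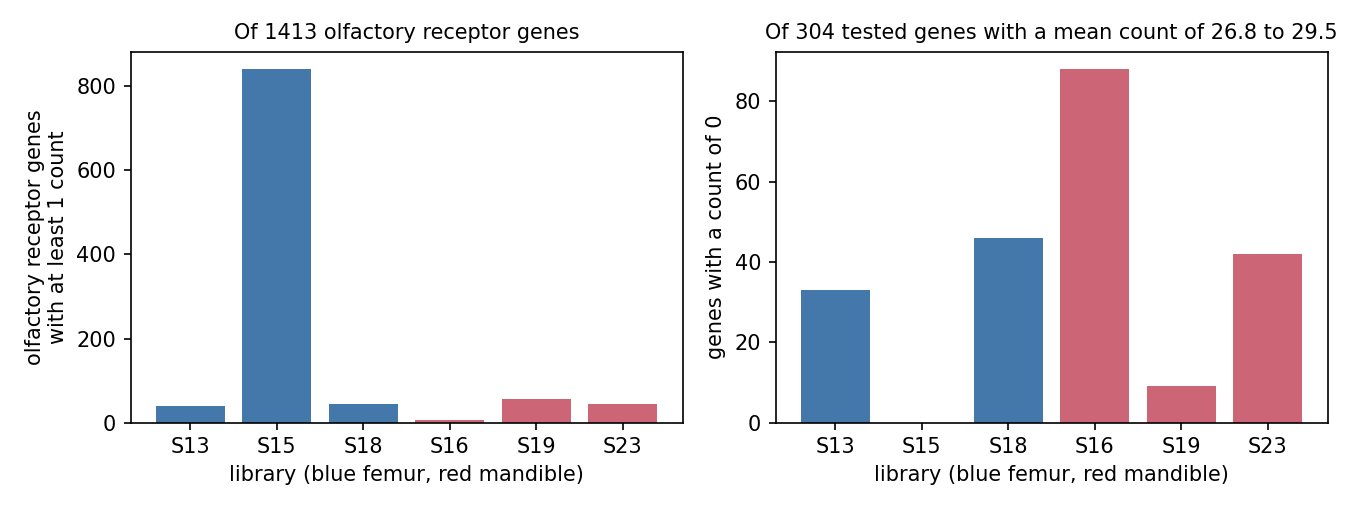
Left, the number of 1413 olfactory receptor genes with at least 1 count in each library; right, the number of genes with a count of 0 in each library, among 304 tested genes with a mean count as low as that of Tnfsf11, Tnfrsf11b and Il34. S15 has 841 olfactory receptor genes with a count and none of the 304 genes at 0, and S16 has 6 and 88.

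Csf1, the gene of M-CSF, is identifier ENSMUSG00000014599 on the minus strand at chr3:107741048-107760469 of GRCm38, with 7 transcripts, 12 exonic blocks and 5281 exonic bases. It had 401 counts in S13, 480 in S15 and 338 in S18 of the femur. The mandible had 382 counts in S16, 451 in S19 and 656 in S23. Mandible libraries S16 and S19, at 19.1 and 21.4 CPM, lay inside the femur range of 14.9 to 22.1 CPM, and S23 stood above it at 37.5 CPM. The means were 19.7 ± 4.16 CPM in the femur against 26 ± 10 CPM in the mandible (SD, n = 3 each). The log2 fold change was 0.40 with a standard error of 0.36, or 1.32-fold with a 95% interval of 0.763 to 2.28 (edgeR's quasi-likelihood test, Benjamini-Hochberg adjusted p = 0.69, and exact permutation p = 0.6). This interval was the narrowest of the 4 genes, and its upper bound was 2.28-fold. Library S23 set the direction: without it the log2 fold change was -0.02, and with S15 and S23 both left out it was 0.08.

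Il34, the gene of IL-34, is identifier ENSMUSG00000031750 on the minus strand at chr8:110741829-110805924 of GRCm38, with 5 transcripts, 9 exonic blocks and 1959 exonic bases. The antisense genes Gm15894 and Gm15895 share 22 and 75 of these bases, and since the use of the strand in counting is not given in the sources used here, reads on them cannot be assigned to either gene. The femur libraries had 16 counts in S13, 41 in S15 and 43 in S18. The mandibular libraries had 0 counts in S16, 25 in S19 and 38 in S23. Apart from S16, all libraries lay between 0.884 and 2.17 CPM, and the groups overlapped. The means were 1.56 ± 0.583 CPM in the femur against 1.12 ± 1.09 CPM in the mandible (SD, n = 3 each). The log2 fold change was -0.48 with a standard error of 1.52, or 0.719-fold with a 95% interval of 0.0714 to 7.24 (edgeR's quasi-likelihood test, Benjamini-Hochberg adjusted p = 0.94, and exact permutation p = 0.7). Without S16 it was 0.11, and without S23 it was -1.43.

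Low counts and libraries at 0 were common at this level. Of the 304 tested genes whose mean count lay between 26.8 and 29.5, the range of Tnfsf11, Tnfrsf11b and Il34, 165 (54.3%) had at least 1 library at 0. The median biological coefficient of variation, edgeR's estimate of the spread between replicates beyond counting error, was 1.14 for these 304 genes and 0.46 for all tested genes. It was 1.24 for Tnfsf11, 1.22 for Tnfrsf11b, 1.18 for Il34 and 0.34 for Csf1. Of the 304 genes, 2 (0.658%) were called. S16 held 0 counts for 88 of them, S18 for 46, S23 for 42, S13 for 33, S19 for 9 and S15 for 0.

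Per kilobase of gene length, Csf1 was the highest of the 4 genes at both sites, at 3.74 ± 0.787 CPM per kilobase in the femur and 4.93 ± 1.9 in the mandible. Its lowest library at 2.83 CPM per kilobase was above the highest library of any of the other genes, 1.38 for Tnfsf11 in S23. In the femur the order went on with Il34 at 0.795 ± 0.298 CPM per kilobase, Tnfsf11 at 0.401 ± 0.333 and Tnfrsf11b at 0.0654 ± 0.113, and the libraries of each gene overlapped those of its neighbour. In the mandible, Tnfsf11 at 0.913 ± 0.791 CPM per kilobase and Tnfrsf11b at 0.9 ± 0.0999 came before Il34 at 0.572 ± 0.556, again with overlap (SD, n = 3 each). Csf1r was higher than Csf1, and Tnfrsf11a than Tnfsf11, in every library. Csf1r had 42.4 ± 13.5 CPM per kilobase in the femur and 66.7 ± 16.7 in the mandible, and Tnfrsf11a, the gene of RANK, had 1.14 ± 0.451 and 1.88 ± 0.472 (SD, n = 3 each).

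The balance of RANKL and OPG was read as the count ratio of Tnfsf11 to Tnfrsf11b within each library, as log2 after 0.5 was added to each count. No scaling between libraries was applied. Where a gene had no count, the ratio therefore depends on the added 0.5 and on the depth of the library. The log2 ratio was 3.46 in S13, 0.31 in S15 and 6.3 in S18 of the femur. In the mandible it was -6.54 in S16, 0.09 in S19 and 0.33 in S23. Each of the 3 ratios far from 0 came from a library in which one of the genes had no count, and the 3 libraries with counts of both genes, S15, S19 and S23, had near-equal counts of them. The means were 3.36 ± 3 and -2.04 ± 3.9 (SD, n = 3 each), a difference of -5.40 (exact two-sided permutation test, p = 0.2, groups overlapping). Pooled over the 3 libraries of a site, there were 59 counts of Tnfsf11 to 12 of Tnfrsf11b in the femur, a ratio of 4.92, and 118 to 149 in the mandible, a ratio of 0.792. These count ratios are not divided by gene length, 2236 and 2818 bases, so they do not rank the levels of the genes. Per kilobase, the mandibular means were 0.913 CPM for Tnfsf11 and 0.9 CPM for Tnfrsf11b. The difference of the mean log2 ratios was -3.15 without S16 and -3.54 with 2 counts added in place of 0.5.

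The log2 count ratio of Csf1 to Il34 was 4.6, 3.53 and 2.96 in S13, S15 and S18 and 9.58, 4.15 and 4.09 in S16, S19 and S23. Csf1 thus had more counts in every library, and the high value of S16 came from the count of 0 for Il34. The sites differed by 2.24 (exact permutation p = 0.3), and by 0.42 without S16. For the ligands against their receptors, the log2 count ratio of Tnfsf11 to Tnfrsf11a was -3.15 ± 0.7 in the femur and -4.15 ± 3.62 in the mandible (SD, n = 3 each; exact permutation p = 1). That difference turned to 1.09 without S16. The log2 ratio of Csf1 to Csf1r was -3.6 ± 0.7 and -3.92 ± 0.91 (SD, n = 3 each; exact permutation p = 0.5), and its difference of -0.32 was 0.07 without S13. None of the 4 ratios separated the sites.

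**Figure D3:**
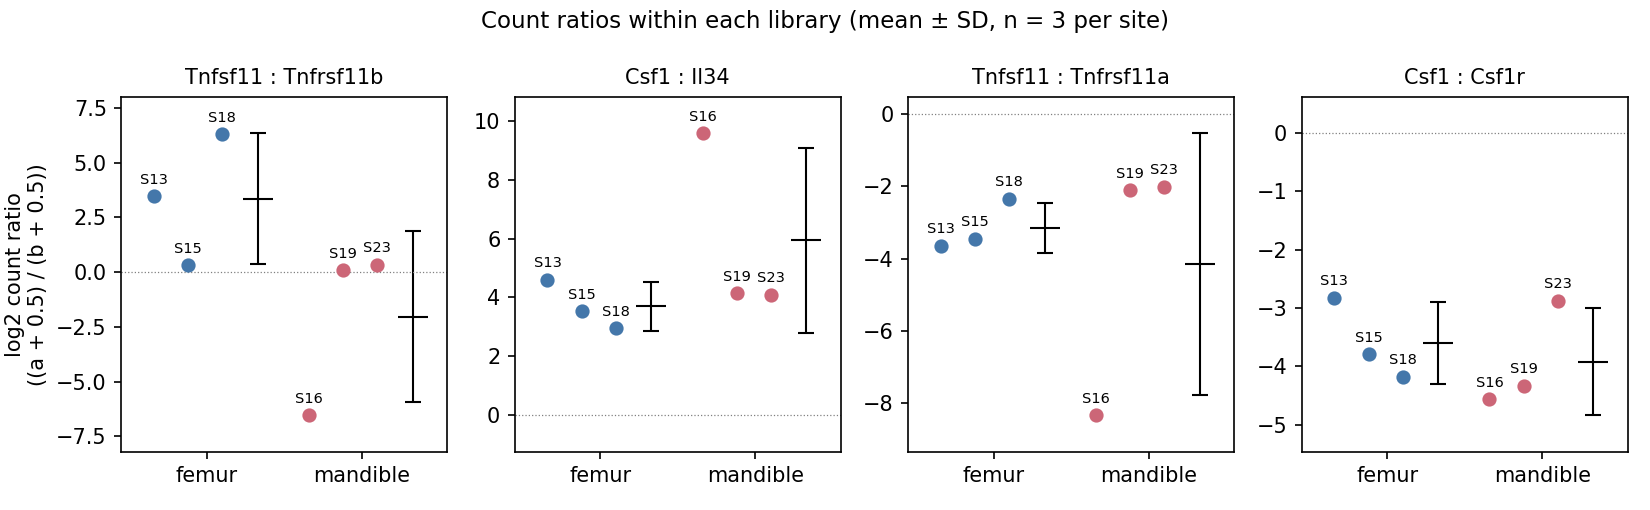
Log2 count ratios of 4 gene pairs within each library, after 0.5 was added to each count, for femur (blue) and mandible (red), with the mean and SD of 3 libraries beside the points. Mandible library S16, in which Tnfsf11 and Il34 had no count, lies apart from the others at -6.54, 9.58 and -8.33 in the first 3 panels.

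The 4 genes did not vary alike over the 6 libraries. Likeness was measured as the root mean square difference of log2 CPM after each gene was centred on its own mean, so that a smaller value means a more similar pattern. Tnfsf11 and Il34, both at 0 in S16, were closest at 1.03, and Il34 and Tnfrsf11b were farthest apart at 4.27, with 3.9 for Tnfsf11 and Tnfrsf11b. Among 11446 genes with a mean of at least 5 CPM, the 5 closest to Tnfrsf11b were Cspg4 (0.55), Dysf (0.57), Tgfb3 (0.7), Pcsk6 (0.74) and Auts2 (0.75). Of these, Tgfb3 and Auts2 were called higher in the mandible, with log2 fold changes of 4.80 and 3.70 (edgeR adjusted p = 0.0048 and 0.028). The closest to Csf1 were Ccdc186 (0.1), Kmt2c (0.13), E430024I08Rik (0.14), Phka1 (0.14) and 3830406C13Rik (0.15). Among the 5 closest to Tnfsf11 were Dyrk3 (1.1), Ptpn3 (1.13) and 1110002L01Rik (1.15). Among the 5 closest to Il34 were Dyrk3 (0.47), Ebf3 (0.6), Dynlt1b (0.64) and Gm28417 (0.69), so that Dyrk3 stood near both genes. None of the genes near Csf1, Tnfsf11 or Il34 was called. All these genes were matched over the same 6 libraries that the test of the sites used. Their calls, or the lack of them, follow in part from the matching and are no separate evidence.

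The receptors and binding partners of these proteins were 7 genes, of which 1 was called higher in the mandible and 0 lower, against 3.88% and 1.3% of all tested genes. Their median log2 fold change was 0.72, against -0.038 over all tested genes. The called gene was Sdc1, which encodes the heparan sulfate proteoglycan syndecan-1, a binding partner of OPG. It had 157, 184 and 274 counts in S13, S15 and S18 and 644, 806 and 802 in S16, S19 and S23. Its level was 9.75 ± 2.04 CPM in the femur against 38.8 ± 6.84 CPM in the mandible (SD, n = 3 each), a log2 fold change of 1.99 with a standard error of 0.32 (edgeR adjusted p = 0.0042). Sdc1 was also called with each library left out in turn, at 1.80 to 2.18, and with S15 and S23 both left out, at 1.71.

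Tnfrsf11a, the receptor of RANKL, had 68, 169 and 201 counts in S13, S15 and S18 and 160, 278 and 219 in S16, S19 and S23. Its level was 6.81 ± 2.7 CPM in the femur against 11.2 ± 2.82 CPM in the mandible (SD, n = 3 each), and the groups overlapped (log2 fold change 0.72, standard error 0.49, edgeR adjusted p = 0.56). Csf1r, the receptor of M-CSF and IL-34, had 245 ± 78.1 and 385 ± 96.2 CPM (SD, n = 3 each; log2 fold change 0.65, standard error 0.33, edgeR adjusted p = 0.38). Lgr4, another receptor of RANKL, had 44, 72 and 60 counts in the femur and 60, 191 and 476 in the mandible. Its log2 fold change was 2.22 with a standard error of 0.73 (edgeR adjusted p = 0.13), and 1.05 without S23. It was called without S16 (edgeR adjusted p = 0.028), and with all libraries by DESeq2 and edgeR's exact test. Ptprz1, a second receptor of IL-34, had 0, 60 and 1 counts in the femur and 34, 31 and 26 in the mandible, so that S15 held nearly all femur counts. Its log2 fold change was 0.72 with a standard error of 1.71 (edgeR adjusted p = 0.92). Without S15 it was 5.68 (edgeR adjusted p = 0.19), a fit against femur libraries with 0 and 1 counts that depends on the prior count. Trem2, a receptor of myeloid cells, had a log2 fold change of -0.79, and Tnfsf10, which encodes TRAIL, the other ligand of OPG, one of -0.55, and neither was called.

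**Figure D4:**
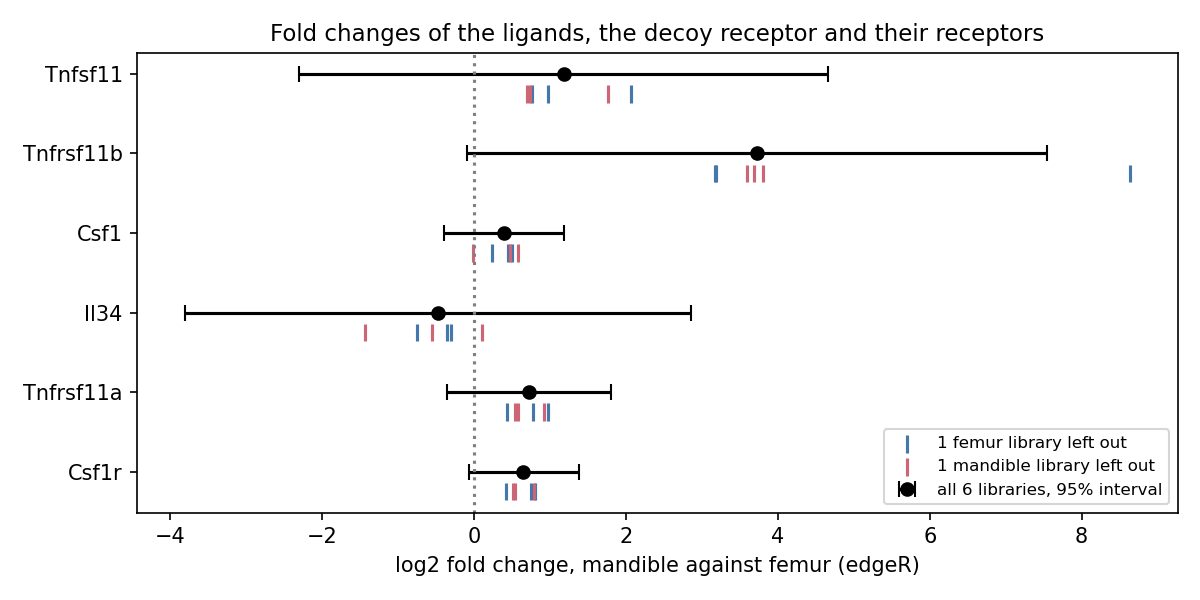
Log2 fold changes of mandible against femur from edgeR for the ligands, OPG and the receptors Tnfrsf11a and Csf1r, with 95% intervals from all 6 libraries (black) and the value with each femur (blue) or mandible (red) library left out. All 6 intervals include 0, and the value of Tnfrsf11b without S15 lies apart at 8.64, a fit against femur libraries at 0 that depends on the prior count.

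Some other soluble regulators of osteoclast formation passed the test. Of 16 tested activators, 2 were called higher in the mandible and 0 lower, with a median log2 fold change of 0.20. They were Igf1, a growth factor for bone cells, with 97, 55 and 89 counts in the femur and 951, 1884 and 3250 in the mandible (log2 fold change 4.77, standard error 0.52, edgeR adjusted p = 0.00037), and Wnt5a, a WNT ligand, with 0, 13 and 0 against 183, 449 and 565 counts (6.64, standard error 1.13, edgeR adjusted p = 0.0056). Both were also called with each library left out in turn and by the other tools, except Wnt5a by limma-voom. As for Tnfrsf11b, all femur counts of Wnt5a were in S15. Without S15 its fitted log2 fold change was 11.68, a fit against femur libraries at 0 that depends on the prior count, and it was 11.26 with S23 left out as well. Against 3 counts in each of these 2 femur libraries, the mandibular mean of Wnt5a was 140-fold higher. This value also leaves out S15 and the spread between libraries, so it is no lower bound on the difference between the sites. The fit on all libraries gave 99.4-fold for Wnt5a. Cxcl12, a chemokine of marrow stroma, had 190 ± 48.3 CPM in the femur against 71.1 ± 44.7 CPM in the mandible (SD, n = 3 each) and was not called by edgeR's quasi-likelihood test (log2 fold change -1.42, adjusted p = 0.084), but was called lower by all 3 other tools, without S15 (-1.61, edgeR adjusted p = 0.042) and without S23 (-2.09, edgeR adjusted p = 0.014). Tgfb1, the most abundant other activator, had a log2 fold change of 0.18. Of 13 tested inhibitors, 1 was called higher and 0 lower (median 0.62). It was Sfrp1, a secreted WNT antagonist that also binds RANKL, with 45, 40 and 64 counts in the femur and 336, 462 and 632 in the mandible (log2 fold change 3.38, standard error 0.46, edgeR adjusted p = 0.0013), called with each library left out, and without S15 or without S16 the list had 2 calls. Il1rn, which encodes the interleukin-1 receptor antagonist, had 14 ± 7.88 and 14.1 ± 3.43 CPM (SD, n = 3 each), and Wnt4 had a log2 fold change of 3.50 that did not pass the quasi-likelihood test (edgeR adjusted p = 0.12) but was called by DESeq2 and edgeR's exact test.

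Of 16 receptors and factors that induce RANKL in stromal cells, 15 had a log2 fold change above 0, with a median of 0.64, against 47.8% above 0 of all tested genes. The called genes were Pth1r, the receptor of parathyroid hormone (log2 fold change 3.02, standard error 0.53, edgeR adjusted p = 0.0063), Lifr, a receptor chain for leukemia inhibitory factor (1.56, 0.37, edgeR adjusted p = 0.031), and Runx2, the osteoblast transcription factor (1.27, 0.27, edgeR adjusted p = 0.018). Pth1r had 37, 39 and 31 counts in the femur and 222, 241 and 347 in the mandible and was called with each library left out. Lifr was not called without S13, S18, S19 or S23 (edgeR adjusted p = 0.13, 0.13, 0.10 and 0.14), and Runx2 not without S13, S19 or S23 (edgeR adjusted p = 0.10, 0.067 and 0.087). The abundant members Il6st, Il6ra and Stat3, of the interleukin-6 pathway, were at 0.59, 0.70 and 0.25 on the log2 scale and were not called.

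Genes that act below the receptors were not called in the main test. Of 41 tested genes of RANK signal transduction, 0 were called by edgeR's quasi-likelihood test, with a median of 0.18, while 6 higher and 1 lower had an unadjusted p under 0.05. DESeq2 called 3 of them higher, edgeR's exact test 2 and limma-voom 1, and the quasi-likelihood test called 1 without S15 and 1 without S16. The abundant members Fos, Jun and Irf8 had log2 fold changes of 0.51, -0.35 and 0.10. Of 22 tested genes of CSF1 receptor signal transduction, 0 were called by this or the 3 other tools, with a median of 0.14 and 1 gene in each direction at an unadjusted p under 0.05. Ptpn6, Pik3cd and Cbl, its most abundant members, were at 0.10, 0.13 and 0.05.

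In the protein families of RANKL and OPG, 0 of 11 tested TNF superfamily ligands were called by edgeR's quasi-likelihood test or any of the other 3 tools, with 0 at an unadjusted p under 0.05 and a median of 0.42. Tnf itself had 15.5 ± 0.214 CPM in the femur against 15.5 ± 4.81 CPM in the mandible (SD, n = 3 each), and Tnfsf14 and Tnfsf13b had log2 fold changes of -0.53 and -0.86. Of 23 tested TNF receptors, 1 was called higher (median 0.11). It was Tnfrsf19, with 42, 111 and 34 counts in the femur and 243, 450 and 890 in the mandible (log2 fold change 3.24, standard error 0.63, edgeR adjusted p = 0.012), which was not called without S13, S19 or S23 (edgeR adjusted p = 0.058, 0.051 and 0.074). Tnfrsf1a, Tnfrsf1b and Tnfrsf21, the most abundant, were at 0.26, 0.64 and 0.52. Of 5 tested hematopoietic growth factors, which besides Cxcl12 included Kitl and Il15, 0 were called by the quasi-likelihood test, with a median of -0.79 and 1, Cxcl12, at an unadjusted p under 0.05. The 8 called genes of these lists became 5 to 11 with 1 library left out, 5 without S13 or without S19 and 11 without S15 or without S16, and 9 with S15 and S23 both left out.

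**Figure D5:**
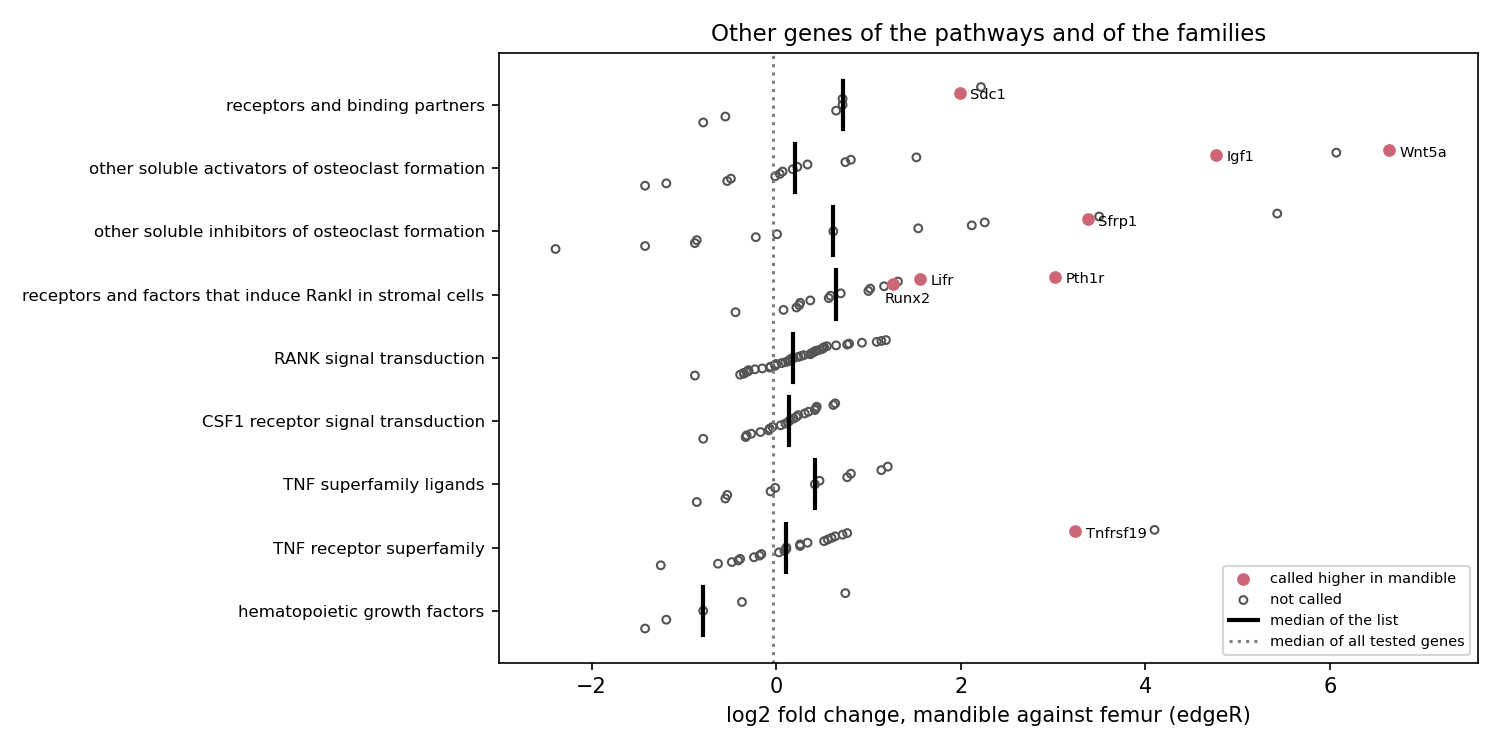
Log2 fold changes of mandible against femur for the tested genes of each list, one point per gene, with called genes in red and named, the median of each list as a black bar and the median of all tested genes, -0.038, as a dotted line. The 8 called genes all lie to the right of 0, and none is in the RANK or CSF1 receptor signal transduction lists.

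Markers of cells other than monocytes moved with the site as well. In bulk RNA, fewer cells of a type and less RNA per cell cannot be told apart. Of 9 osteoblast markers, 8 were called higher in the mandible, and their summed level was 139 to 169 CPM in the femur against 7500 to 11500 CPM in the mandible. Col1a1, the main bone collagen, had 487, 984 and 551 counts in the femur and 94678, 118565 and 123047 in the mandible (log2 fold change 7.49, edgeR adjusted p = 1.6e-05), and Bglap, the gene of osteocalcin, had 3, 16 and 0 against 589, 355 and 262. Of 3 tested osteocyte markers 1 was called higher (summed 3.64 to 7.69 against 24.8 to 65.3 CPM), and Sost, Mepe and Fgf23, which define osteocytes, were at 0 to 7, 0 to 7 and 0 to 24 counts in a library, with Fgf23 at 0 in the femur. Of 8 enamel and dentin markers 7 were called higher (0.221 to 3.5 against 5780 to 11300 CPM, with Odam at 0 in the femur), of 6 periodontal ligament and fibroblast markers 5 (7.88 to 13.9 against 244 to 425 CPM, with Tnmd at 0 in the femur), and of 6 mural cell markers 3 (20.0 to 34.2 against 94.4 to 218 CPM). Of 5 skeletal muscle markers 5 were called higher (3.14 to 13.2 against 890 to 3180 CPM), of 5 keratinocyte markers 2 (8.51 to 10.9 against 97.5 to 131 CPM) and of 4 chondrocyte markers 2 (2.54 to 12 against 52.3 to 121 CPM). Tnfrsf11b, Sdc1, Igf1, Wnt5a, Sfrp1 and Pth1r had their higher counts in the same 3 libraries as these markers, whose part in those differences was not tested.

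Of 8 marrow reticular stromal markers 1, Pdgfra, was called higher and 0 lower by edgeR's quasi-likelihood test, while DESeq2 and edgeR's exact test called 2 lower, Adipoq and Cxcl12, and limma-voom 1. The quasi-likelihood test also called 2 lower without S15 and 1 without S23, and the summed level was 204 to 325 CPM in the femur against 125 to 309 CPM in the mandible, led by Cxcl12. T cell markers, of cells that can make RANKL, summed to 37.8 to 89.8 against 56.0 to 77.2 CPM with 0 of 6 called, 0 at an unadjusted p under 0.05 in edgeR's quasi-likelihood test, and 0 by DESeq2, the exact test and limma-voom. B cell markers summed to 16.4 to 23.6 against 23.7 to 33.3 CPM, with 1 of 6, Ebf1, called higher with all libraries and 0 without any one of them or by limma-voom. Schwann cell markers summed to 5.48 to 9.17 against 11.5 to 33 CPM, with 1 of 3 called higher and 0 without S18, S19 or S23. Endothelial markers (49.1 to 66.6 against 37.7 to 55.6 CPM), macrophage markers (53.2 to 95.3 against 51.8 to 78.8 CPM) and osteoclast markers (43.3 to 333 against 129 to 241 CPM) had 0 of 5 called each by edgeR's quasi-likelihood test, with 0, 2 and 1 at an unadjusted p under 0.05, and the other tools called at most 1 of them, a macrophage marker. Of 7 monocyte markers 0 were called by any of the 4 tools, with 1 at an unadjusted p under 0.05. Megakaryocyte markers were lower in the mandible, with 4 of 5 called (427 to 685 against 49.4 to 77.1 CPM), as were 2 of 6 erythroid markers (139 to 988 against 49.3 to 102 CPM) and 1 of 7 neutrophil markers (3280 to 28700 against 3070 to 7530 CPM). The erythroid count was 0 without S13, S16, S19 or S23 and 4 without S15, and the neutrophil count was 4 without S15 and 0 without any other single library. With S15 and S23 both left out, 7 of 9 osteoblast, 7 of 8 enamel and dentin, 4 of 6 periodontal ligament and fibroblast and 4 of 5 megakaryocyte markers were called in the directions given, 5 of 7 neutrophil and 2 of 8 marrow reticular stromal markers were called lower, and the counts of B cell and Schwann cell markers were 0. With 1 library left out, the count of osteoblast markers was lowest without S19, at 5 of 9, that of chondrocyte markers was 1 without S13, S19 or S23, that of osteocyte markers was 2 without S13 or S15, and 1 macrophage marker was called lower without S15 or without S16.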

How the data were processed

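RNA of 6 libraries of bone marrow monocytes, 3 per skeletal site, was analysed. After trimming with Trimmomatic, the authors aligned the read pairs to GRCm38 (HISAT2 2.1.0 per the submitters' processing notes) and ran featureCounts, and the counts they deposited are raw, with nothing divided or scaled. Whether counting was stranded, or took multi-mapped reads, is not given in the sources used here. The coordinates in the count table were not used, and positions were taken from GENCODE M21 by Ensembl identifier, whose exonic lengths equalled those of the count table for all 4 genes.

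The test was edgeR 4.0.16's quasi-likelihood test in R 4.3.3, after filterByExpr (10 counts at least, 15 in total) and TMM, with a prior count of 0.125 and no covariates. P-values were adjusted by Benjamini-Hochberg over the 18114 tested genes. Standard errors were the log2 fold change divided by the square root of F. Single values were also compared by exact two-sided permutation of 3 against 3 libraries. The members and gene lists were chosen with earlier results of these data known. Named genes were the 4 members, their receptors and binding partners, up to 3 genes of highest mean CPM and up to 3 called genes of largest fold change in each other list, and the 5 genes nearest to each member. A few genes chosen this way are left out of the text. Genes outside this rule, named for a count of 0 or for a count of at most 5 calls, were chosen after their values were seen. The fit was repeated with edgeR's exact test, limma-voom (limma 3.58.1), DESeq2 1.42.0 and other scalings, filters, thresholds and prior counts, each library left out in turn and, chosen after seeing the data, a loess correction for gene length (span 0.4) and both S15 and S23 left out. The scripts were tested on simulated data.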

Additional observations from a re-analysis of the deposited data

How the results depend on the processing

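Tnfsf11, Tnfrsf11b and Il34 had few counts: a filter of at least 10 counts in every library left Csf1 alone, so none of the other 3 had a value there. Of the alternatives to the fold changes of the 4 genes, 3 turned a direction, each of a difference that had not passed the test: Tnfsf11 was at -0.33 in limma-voom, Il34 at 0.11 without S16 and Csf1 at -0.02 without S23. With 1 library left out at a time, the log2 fold changes ranged from 0.70 to 2.07 for Tnfsf11, 3.17 to 8.64 for Tnfrsf11b, -0.02 to 0.58 for Csf1 and -1.43 to 0.11 for Il34. Tnfrsf11b passed the test only without S15 (8.64, edgeR adjusted p = 0.047), where both remaining femur libraries were at 0. With the trend on gene length removed, Csf1 was at 0.10 and Tnfrsf11b at 3.89. The 938 genes called (702 higher, 236 lower) became 1548 with DESeq2 (1091 and 457), 1468 with edgeR's exact test (1000 and 468), 1590 with every gene with a count tested (1019 and 571) and 445 at an adjusted p under 0.01 (384 and 61). They ranged from 434 (376 and 58) without S19 to 1565 (957 and 608) without S15, with 509 without S13, 552 without S18, 551 without S23 and 764 without S16. With S15 and S23 both left out there were 1145 (648 and 497). The called genes of the pathway and family lists ranged from 5 to 11 with 1 library left out. Why these counts moved was not tested. The differences of the 4 count ratios moved by less than the spread between libraries under each alternative tried. No paired analysis was possible because the animal of each library is not given in the sources used here.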
